A study of Mus musculus with 12 samples.

Results

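The expression of 10 genes known as targets of the transcription factor p53 was followed in mouse podocytes grown in culture. Podocytes are the cells whose foot processes cover the outer face of the glomerular filter. The genes were Cdkn1a, Mdm2, Plk3, Aen, Sesn1, Sesn2, Fas, Ccng1, Trp53inp1 and Bbc3, and every array probe that the platform annotation assigns to them was taken. These were 28 of 45281 probes. Of the 28, 24 had a detection p-value under 0.05 on at least 3 of the 12 arrays and entered the tests, and 21 were detected on all 12. The 4 that fell short were 1 probe of Mdm2, 1 of Sesn2 and 2 of Fas, of which 3 were detected on 0 arrays. Within a gene, the probes are numbered by falling mean signal.

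The cells, labelled as a cell line, were held for 48 h in 4 conditions with 3 arrays each. The groups were DZNep without high glucose, high glucose plus DZNep, high glucose alone, and a control with neither. The series describes DZNep as inhibiting EZH2, the histone methyltransferase of Polycomb repressive complex 2, and the doses of DZNep and glucose are not given in the sources used here. Whether the 3 arrays of a group came from separate cultures is not stated, and p-values then reflect only the spread between arrays, which may be technical. Values are log2 intensities after background correction, an offset of 16 and quantile normalization, so changes of dim probes are understated and levels of different probes are not compared. In RNA from a whole culture, fewer expressing cells and less RNA per cell cannot be told apart.

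The p53 protein is kept scarce by Mdm2, the ubiquitin ligase that p53 itself induces, and accumulates when DNA damage, ribosomal stress or other insults weaken that control. Its targets arrest the cell cycle through Cdkn1a (p21), restrain growth signalling through the sestrins, and promote death through Fas and Bbc3 (PUMA). In podocytes, which divide little in the kidney, p53 is known mainly for its part in injury and cell loss. The gene of p53 itself was not analysed here.

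Between 38.4% and 41.3% of probes were detected per array, and control replicate 3 stood apart from the other arrays on the second principal component (-26.6, with 14.6% of the variance). On the first component it lay at -34.05, against -20.5 and -19 for the other controls. Of 12 podocyte markers 6 were tested, and Nphs1, Synpo, Podxl, Cd2ap, Actn4 and Cdkn1c were detected on 12 arrays, whereas Ptpro and Tcf21 were detected on 0. Among markers of other kidney and blood cells, Pecam1, Cdh5, Tie1, Flt1, Ptprc, Adgre1, Itgam, Umod and Slc34a1 were detected on 0 arrays, while Kdr was detected on 11. Detected on 12 were the endothelial Esam and Eng, the leukocyte Csf1r, the mesangial or smooth muscle Pdgfrb, Acta2, Des, Gata3 and Tagln, and the tubular Cdh1, Cdh16, Aqp1, Lrp2 and Pax8. Of the parietal markers, Cldn1, Pax2, Cd24a and Vim were detected on 12 arrays, Krt8 on 7 and Krt18 on 0. With DZNep at normal glucose 2 of 4 tested endothelial markers rose (Esam, Eng), 2 of 3 leukocyte (Laptm5, Csf1r) and 2 of 7 mesangial (Gata3, Pdgfrb). Of 5 tubular markers Cdh1 rose and Cdh16 fell, and of 5 parietal markers Vim fell. Of the 6 podocyte markers 1 rose and 1 fell. Over all genes 19% rose and 12.7% fell, and these few markers were not tested against those shares. The summed intensity of the endothelial markers (8 listed) was 219 to 263 with DZNep and 122 to 189 in control. That of the leukocyte markers (7 listed) was 212 to 237 with DZNep and 128 to 175 in control. The podocyte sum (12 listed, 6 tested) was also higher, at 17310 to 18560 with DZNep and 15460 to 17240 in control. The mesangial sum (8 listed) was lower, at 60500 to 64000 with DZNep and 66620 to 68480 in control. So was the tubular sum (7 listed), at 12860 to 15650 with DZNep and 15760 to 16350 in control. The parietal sum (6 listed, 5 tested) was 12370 to 13040 with DZNep and 15810 to 21340 in control. In high glucose the endothelial sum was 189 to 241 with DZNep and 138 to 176 without it, and the leukocyte sum 162 to 200 with DZNep and 109 to 156 without it. The tubular sum was lower there too, at 18270 to 19740 with DZNep and 20450 to 21570 without it. The other sums overlapped in high glucose. The podocyte sum was 16240 to 18270 with DZNep and 16900 to 17400 without it. The mesangial sum was 60250 to 63750 with DZNep and 62420 to 65270 without it. The parietal sum was 14670 to 15130 with DZNep and 13740 to 16040 without it. The part of these cells in the results below was not tested.

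**Figure D1:**
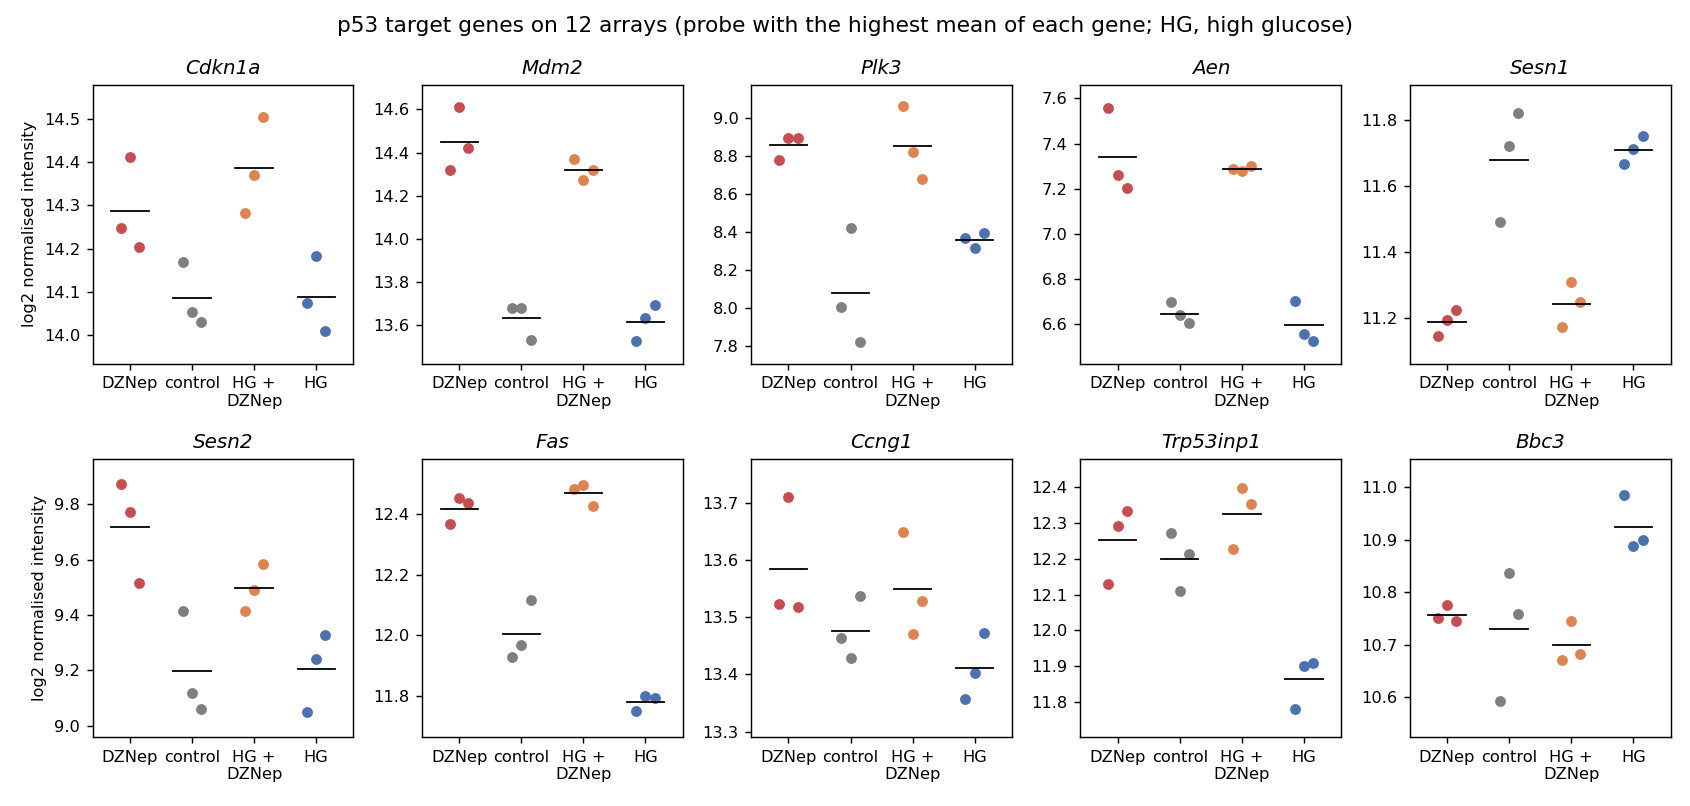
Log2 normalised intensity (vertical axes, each panel with its own range) of the highest-mean probe of each of the 10 genes on all 12 arrays; dots are arrays, bars are group means, and HG is high glucose. The arrays with DZNep lie above those without it for Mdm2, Aen and Plk3 and below them for Sesn1, in both glucose states.

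The first comparison asked what DZNep did to these genes at normal glucose. Cdkn1a, Mdm2, Plk3, Aen, Sesn2 and Fas rose at 10 probes, Sesn1 fell at 3, and Ccng1, Trp53inp1 and Bbc3 did not pass at any probe. In all, 13 of 24 probes changed (54.2%), against 31.1% of the 16311 probes tested. The share that rose was 41.7%, against 17.1% of all probes, while 14.1% of all probes fell. The members and the lists below were chosen with earlier results of these data known. Such shares therefore describe these genes and do not test them as a set. The median log2 change of the 24 probes was 0.30, against 0.03 over all probes, and the changes ran from -1.04 to 0.82. Tests were made with limma over all 12 arrays, with p-values adjusted over the 16311 probes and a threshold of 0.05. DZNep and control arrays were fully separated at 11 probes that were higher and 3 that were lower, against 23.8% and 19.7% of all probes. Without control replicate 3 the counts of members that passed were also 10 higher and 3 lower, and 22.7% of all probes changed. With arrays centred on their medians the counts of members were 8 and 3. That centring left 23.1% of all probes changed, of which 35.3% were higher, against 54.8% of calls in the quantile-normalized values.

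Mdm2, the ubiquitin ligase that limits p53, gave the largest rise. At its first probe (ILMN_1250774) the log2 intensity was 14.32, 14.61 and 14.42 on the DZNep arrays, against 13.68, 13.68 and 13.53 on the control arrays. All DZNep arrays lay above all controls, and the groups were further apart than either was wide. The change was 0.82 (SE 0.088, n = 3 per group, adjusted p = 0.000108), a fold of 1.77. The second probe rose by 0.67 (adjusted p = 0.000437). Neither Mdm2 call was lost without any 1 of the arrays.

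Cdkn1a, which encodes the cyclin-dependent kinase inhibitor p21, rose by a smaller amount that differed between its 3 probes. The third probe (ILMN_2846776) read 12.81, 12.87 and 12.70 with DZNep, against 12.19, 12.37 and 12.30 in control. Its rise was 0.50 (SE 0.084, adjusted p = 0.00139), and that of the second probe was 0.37 (SE 0.083, adjusted p = 0.00745). With arrays centred on their medians the second probe no longer passed (adjusted p = 0.0875). The first probe gave 14.25, 14.41 and 14.20 with DZNep and 14.17, 14.05 and 14.03 in control, a change of 0.20 (95% interval 0.01 to 0.40) that did not pass (adjusted p = 0.10; 0.0453 without background correction). At each of the 3 probes the DZNep arrays lay above the controls without overlap.

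Plk3, a stress-responsive kinase of the polo family, and Aen, a nuclease known to help degrade DNA in apoptosis, rose next. Plk3 read 8.78, 8.89 and 8.89 with DZNep, against 8.0, 8.42 and 7.82 in control, and rose by 0.77 (SE 0.139, adjusted p = 0.00226). Its control arrays were spread more widely (SD 0.31) than its DZNep arrays (SD 0.06), without overlap. Aen read 7.56, 7.26 and 7.20 with DZNep, against 6.70, 6.64 and 6.60 in control, at its first probe (ILMN_2924088). The log2 changes of Aen were 0.70 (SE 0.094, adjusted p = 0.000457) and 0.58 (adjusted p = 0.00333) at its first and second probes, and 0.35 and 0.21 without background correction. The third Aen probe was detected on 2 of 3 DZNep arrays and 1 of 3 controls and gave 0.56 without passing (95% interval -0.14 to 1.26).

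The sestrins, which dampen mTORC1 signalling and oxidative stress, moved in opposite directions. Sesn1 read 11.15, 11.20 and 11.22 with DZNep, against 11.49, 11.72 and 11.82 in control, at its first probe (ILMN_2654074). It fell by 0.49 there (SE 0.087, adjusted p = 0.00214) and by 0.48 at its second probe (adjusted p = 0.000507). The third Sesn1 probe was dim and was detected on 1 of 3 DZNep arrays and 3 of 3 controls. It gave -1.04 (adjusted p = 0.00824), -0.64 with an offset of 50, and -0.34 without background correction. Sesn2 read 9.87, 9.77 and 9.51 with DZNep, against 9.41, 9.12 and 9.06 in control, at its first probe (ILMN_2948945). The rise was 0.52 (SE 0.122, adjusted p = 0.00837), and 0.58 at the second Sesn2 probe (adjusted p = 0.00765). The second call was lost with arrays centred on their medians (adjusted p = 0.0516), and without background correction the change was 0.30. In Sesn1 every DZNep array lay below every control, and in Sesn2 every DZNep array lay above.

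Among the death-promoting targets, Fas rose and Bbc3 did not pass. Fas, the receptor for Fas ligand, read 12.37, 12.45 and 12.44 with DZNep, against 11.93, 11.97 and 12.12 in control, at its first probe (ILMN_2902979). The change was 0.42 (SE 0.070, adjusted p = 0.00153), with no overlap between the groups. Its second probe gave -0.27 (95% interval -0.74 to 0.19), with overlapping groups and control SD 0.35. Bbc3, a BH3-only protein, gave 0.03, 0.23 and 0.09 at its 3 probes, and the interval at the first probe (-0.14 to 0.19) leaves out changes as large as those of Mdm2 or Aen.

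Ccng1, a cyclin-like partner of phosphatase 2A that feeds back on Mdm2, and Trp53inp1, a p53-binding nuclear protein with a role in autophagy, also did not pass at normal glucose. The 3 Ccng1 probes gave 0.11, 0.15 and 0.02, with intervals that end between 0.24 and 0.44. Trp53inp1 read 12.13, 12.29 and 12.33 with DZNep, against 12.27, 12.11 and 12.21 in control, so that its first probe overlapped (change 0.05, adjusted p = 0.666). Its second probe gave 0.43 (95% interval 0.04 to 0.81, adjusted p = 0.0847) and passed under 4 alternatives, among them without control replicate 1 (0.66, adjusted p = 0.00521) and without DZNep replicate 1 (0.57, adjusted p = 0.0456).

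**Figure D2:**
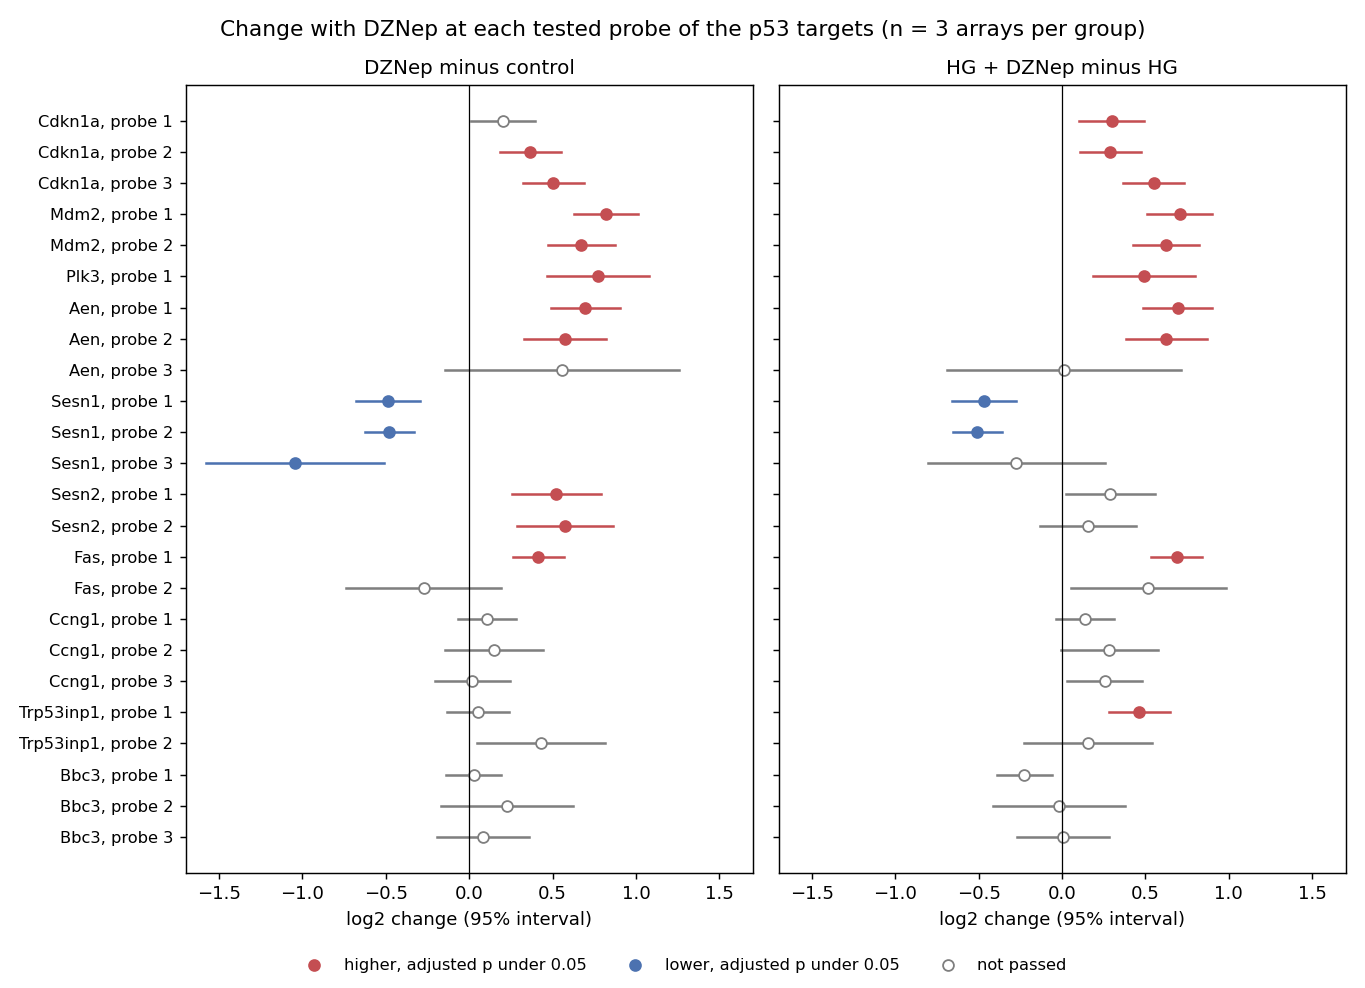
Log2 change with its 95% interval (horizontal axes) at each of the 24 tested probes, for DZNep minus control (left) and high glucose plus DZNep minus high glucose (right); filled points passed an adjusted p of 0.05 in red (higher) or blue (lower), open points did not. Mdm2, Plk3, Aen, Cdkn1a and Fas have red points and Sesn1 blue points in both panels.

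The second comparison asked what DZNep did in high glucose, on the remaining arrays. Cdkn1a, Mdm2, Plk3, Aen, Fas and Trp53inp1 rose at 10 probes and Sesn1 fell at 2, so that 12 of 24 probes changed (50%), against 19% of all probes. The share that rose was 41.7%, against 10.1% of all probes, and 8.93% of all probes fell. The median log2 change was 0.29, against 0.01 over all probes. The arrays did not overlap at 13 higher and 3 lower probes, against 21.4% and 19.4% of all probes. Leaving out any 1 array gave between 9 and 13 changed member probes, while 11.9% to 21.8% of all probes changed. In the authors' processed values 63.4% of all calls were higher, against 53% here, with 10 members higher and 2 lower in both. In those values 19.3% of all probes changed.

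Mdm2 read 14.37, 14.27 and 14.32 on the arrays with high glucose plus DZNep, against 13.52, 13.63 and 13.69 with high glucose alone. The rise was 0.71 (SE 0.088, adjusted p = 0.000382), and 0.63 at the second probe. Aen read 7.29, 7.28 and 7.30 with high glucose plus DZNep, against 6.70, 6.56 and 6.52 with high glucose. Its first probe rose by 0.69 (adjusted p = 0.000621) and its second by 0.63, while the third gave 0.01. Without background correction the rises of Aen were 0.34 and 0.24. Both genes were separated without overlap at these probes, as they were at normal glucose.

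Fas had the smallest adjusted p of the 24 probes in high glucose. Its first probe read 12.48, 12.50 and 12.43 with high glucose plus DZNep, against 11.75, 11.80 and 11.79 with high glucose. All arrays within a group lay close together (SD 0.04 and 0.03), and the change was 0.69 (SE 0.070, adjusted p = 9.36e-05), a fold of 1.61. The second Fas probe gave 0.52 (95% interval 0.05 to 0.98, adjusted p = 0.112), with arrays that did not overlap. The second probe passed without high glucose replicate 1 (0.71, adjusted p = 0.0494), without background correction and with array weights.

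Cdkn1a rose at all 3 probes in high glucose. The third probe read 12.77, 12.90 and 13.01 with high glucose plus DZNep, against 12.36, 12.28 and 12.39 with high glucose, and rose by 0.55 (SE 0.084, adjusted p = 0.00119). The first and second probes rose by 0.30 (adjusted p = 0.0363) and 0.29 (adjusted p = 0.0327). The first call was lost under 9 alternatives and the second under 7. The first was lost without high glucose plus DZNep replicate 2 or 3, or high glucose replicate 1 or 3. The second was lost without any 1 array with high glucose plus DZNep, or without high glucose replicate 2 or 3. Over these 6 arrays left out in turn the changes stayed between 0.24 and 0.35 at the first probe and between 0.27 and 0.33 at the second. With arrays centred on their medians the first gave 0.19 (adjusted p = 0.365) and the second 0.26 (adjusted p = 0.231). Neither passed with no filter on dim probes (adjusted p = 0.0611 and 0.0549). The first also did not pass in the authors' processed values (0.22, adjusted p = 0.0758), with only the groups compared (adjusted p = 0.054) or with the replicate block (adjusted p = 0.0555).

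Plk3 read 9.06, 8.82 and 8.68 with high glucose plus DZNep, against 8.37, 8.32 and 8.39 with high glucose, and rose by 0.49 (SE 0.139, adjusted p = 0.03). The groups did not overlap, yet the Plk3 call was lost without high glucose plus DZNep replicate 1 or 2 or any 1 high glucose array (adjusted p up to 0.103). Sesn1 read 11.17, 11.31 and 11.25 with high glucose plus DZNep, against 11.67, 11.71 and 11.75 with high glucose. It fell by 0.47 (adjusted p = 0.00388) and by 0.51 at its second probe (adjusted p = 0.000489), again without overlap. At the third Sesn1 probe the change was -0.27 and did not pass.

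Sesn2 and Trp53inp1 differed from their results at normal glucose in what passed. Sesn2 read 9.41, 9.49 and 9.58 with high glucose plus DZNep, against 9.05, 9.24 and 9.33 with high glucose, a change of 0.29 (95% interval 0.02 to 0.56, adjusted p = 0.12). Its second probe gave 0.16 (adjusted p = 0.454). Trp53inp1 read 12.23, 12.40 and 12.35 with high glucose plus DZNep, against 11.78, 11.90 and 11.91 with high glucose, and rose by 0.46 (SE 0.084, adjusted p = 0.0032) without overlap. Its second probe gave 0.15 (adjusted p = 0.591). Bbc3 gave -0.23, -0.02 and 0.01. At the first Bbc3 probe the arrays with high glucose plus DZNep lay at 10.67, 10.74 and 10.68, against 10.99, 10.89 and 10.90 with high glucose, and the adjusted p was 0.0574. This Bbc3 probe passed under 6 alternatives, with adjusted p from 0.0236 to 0.0494, one of them without control replicate 1. The 3 Ccng1 probes gave 0.14, 0.28 and 0.26 and none passed (adjusted p from 0.105 to 0.258).

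The DZNep comparisons at normal and high glucose share no array, although all arrays were normalized together. Of the 24 probes, 8 rose in both, 2 fell in both, 3 passed only at normal glucose and 2 only in high glucose, and 0 passed in opposite directions. The 10 probes with the same call in both were 41.7% of the members, against 12.5% of all probes. The sign of the change was the same at 21 of 24 member probes (87.5%) and at 70.1% of all probes. The exceptions were the second Fas probe and the first and second Bbc3 probes.

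**Figure D3:**
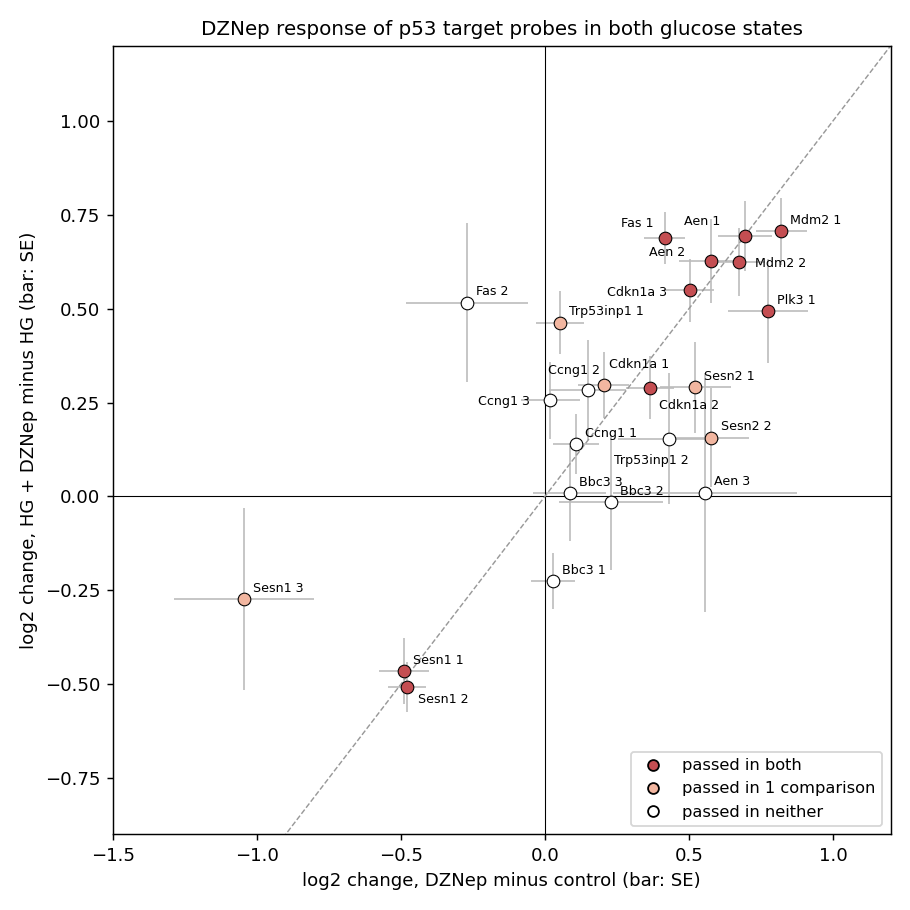
Log2 change with DZNep at normal glucose (horizontal axis) against that in high glucose (vertical axis) for the 24 tested probes, each named by gene and probe number, with SE bars; the dashed line marks equal change. The 10 filled red points passed in both comparisons, 8 in the upper right and 2, both of Sesn1, in the lower left.

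The difference between the glucose states was tested directly as an interaction. None of the 24 probes passed (limma, smallest adjusted p = 0.167), and 0.0368% of all probes passed. An unadjusted p under 0.05 was found at 6 member probes (25%) and at 15.6% of all probes. The smallest p was that of the first Trp53inp1 probe, whose change with DZNep was higher by 0.41 in high glucose (SE 0.118, 95% interval 0.15 to 0.67). The second Trp53inp1 probe had the opposite sign, with an interaction of -0.28 (95% interval -0.82 to 0.27). For Mdm2 and Aen at their first probes the interaction was -0.11 (95% interval -0.39 to 0.16) and -0.00 (95% interval -0.29 to 0.29).

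High glucose alone was set against the same controls. Of the 24 probes 0 passed (limma, smallest adjusted p = 0.109), and 0.123% of all probes passed. An unadjusted p under 0.05 was found at 9 member probes (37.5%) and at 18% of all probes. The arrays did not overlap at 4 probes that were higher and 3 that were lower, against 11.5% and 8.74% of all probes. Trp53inp1 had the smallest p. Its first probe gave -0.34 (SE 0.084, 95% interval -0.52 to -0.15), with high glucose arrays at 11.78, 11.90 and 11.91, against controls at 12.27, 12.11 and 12.21. It passed with quantile normalization and no background correction (-0.33, adjusted p = 0.0312). The second Trp53inp1 probe had the opposite sign, at 0.22 (95% interval -0.16 to 0.61), and did not pass. The first Fas probe gave -0.22 (95% interval -0.38 to -0.07) and the first Mdm2 probe -0.01 (95% interval -0.21 to 0.18).

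High glucose under DZNep, measured against DZNep alone, also changed 0 of 24 probes (limma, smallest adjusted p = 0.412), where 0.0736% of all probes passed. At an unadjusted p under 0.05 there was 1 member probe (4.17%), against 9.56% of all probes. That probe was the third of Bbc3, at 6.17, 5.89 and 5.89 with high glucose plus DZNep, against 5.35, 5.65 and 5.89 with DZNep. It is dim, and was detected on 3 of 3 arrays with high glucose plus DZNep and 2 of 3 with DZNep. For Mdm2 the change was -0.13 (95% interval -0.32 to 0.06), for Sesn1 0.05 (95% interval -0.14 to 0.25) and for Fas 0.05 (95% interval -0.10 to 0.20), each at the first probe.

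Because these genes are known to share a regulator, the 300 bases around annotated starts are shown for the 6 genes that changed the same way in both DZNep comparisons, 250 before and 50 after each start, 5′ to 3′. Windows are from RefSeq on build GRCm38.p6, and 9 of the 10 genes have at least 1. Capitals mark matches on either strand to the p53 half-site, a 10-letter consensus of which a full site holds a pair. The order is that of the size of the change with DZNep at normal glucose at the probe with the highest mean, and where a gene has several windows, one with a match is taken. Ccng1, whose window also holds a match, is not shown.
Mdm2 promoter, chr10:117710709-117711008 (minus strand): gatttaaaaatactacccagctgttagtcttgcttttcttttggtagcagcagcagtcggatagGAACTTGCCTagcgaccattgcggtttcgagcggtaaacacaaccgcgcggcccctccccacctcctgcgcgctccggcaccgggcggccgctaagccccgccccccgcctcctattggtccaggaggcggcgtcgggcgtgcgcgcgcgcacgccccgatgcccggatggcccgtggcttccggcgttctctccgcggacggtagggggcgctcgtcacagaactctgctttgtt
Plk3 promoter, chr4:117133914-117134213 (minus strand): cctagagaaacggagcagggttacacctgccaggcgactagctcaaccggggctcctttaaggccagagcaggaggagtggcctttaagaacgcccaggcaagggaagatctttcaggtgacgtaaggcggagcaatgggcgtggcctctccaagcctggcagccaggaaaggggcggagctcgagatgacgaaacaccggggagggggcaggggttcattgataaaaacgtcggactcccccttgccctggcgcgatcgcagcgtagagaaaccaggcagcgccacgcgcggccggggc
Aen promoter, chr7:78895677-78895976 (plus strand): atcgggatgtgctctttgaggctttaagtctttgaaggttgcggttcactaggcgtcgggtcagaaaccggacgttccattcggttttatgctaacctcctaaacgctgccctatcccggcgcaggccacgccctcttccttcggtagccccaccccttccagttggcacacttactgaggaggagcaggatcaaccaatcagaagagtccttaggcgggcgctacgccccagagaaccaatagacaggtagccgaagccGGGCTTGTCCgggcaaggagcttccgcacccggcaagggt
Sesn1 promoter, chr10:41887189-41887488 (plus strand): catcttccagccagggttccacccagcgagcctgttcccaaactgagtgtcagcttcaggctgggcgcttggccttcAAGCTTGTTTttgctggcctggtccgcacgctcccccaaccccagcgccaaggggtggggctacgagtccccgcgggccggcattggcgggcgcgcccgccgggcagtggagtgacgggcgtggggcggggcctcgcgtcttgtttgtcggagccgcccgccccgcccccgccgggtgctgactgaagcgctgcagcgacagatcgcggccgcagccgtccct
Fas promoter, chr19:34290409-34290708 (plus strand): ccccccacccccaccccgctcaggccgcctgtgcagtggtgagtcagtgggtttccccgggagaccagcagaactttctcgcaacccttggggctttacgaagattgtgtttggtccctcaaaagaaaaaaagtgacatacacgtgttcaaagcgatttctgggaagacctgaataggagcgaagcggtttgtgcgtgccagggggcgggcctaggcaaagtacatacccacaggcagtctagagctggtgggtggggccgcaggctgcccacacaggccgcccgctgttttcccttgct
Cdkn1a promoter, chr17:29090729-29091028 (plus strand): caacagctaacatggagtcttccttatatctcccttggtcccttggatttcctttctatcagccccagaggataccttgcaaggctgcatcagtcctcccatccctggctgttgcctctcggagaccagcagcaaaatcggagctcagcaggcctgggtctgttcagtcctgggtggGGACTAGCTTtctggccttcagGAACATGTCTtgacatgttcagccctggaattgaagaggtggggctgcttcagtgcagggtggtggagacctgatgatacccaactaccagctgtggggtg

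A half-site was found in 6 of 14 windows of the members (42.9%), against 8.36% of all 32851 RefSeq windows. The 6 belong to 5 genes, Cdkn1a, Mdm2, Aen, Sesn1 and Ccng1, since both windows of Aen overlap and hold the same match. The upstream Cdkn1a window, 2790 bases before the other start of the gene, holds GGACTAGCTT and GAACATGTCT. By the strict consensus these are close enough to count as a pair (a spacer of up to 13 bases), and 0.0731% of all windows hold a pair. The letters directly after GAACATGTCT, tgacatgttc, miss the consensus only at their first letter and are therefore not marked. Which of these letters p53 binds was not tested. Plk3, Sesn2, Fas and Bbc3 have no match in their windows. Ccng1 has one and did not pass in any comparison, and Plk3 has none and rose in both DZNep comparisons. The match is a description of these letters only. In Mdm2, p53 is known to act through sites in the first intron.

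Other known p53 targets were read at 1 probe per gene, that with the highest mean. Of 40 listed genes 32 were tested: 14 rose, 2 fell and 16 did not pass with DZNep at normal glucose, against 19% of all genes higher and 12.7% lower. Without control replicate 3 the counts were 11 and 0. In that fit 22.7% of all probes changed, against 31.1% with all arrays. The list's median was 0.26, against 0.05 over all genes. Dcxr, a carbonyl reductase, rose by 0.90 (adjusted p = 0.000111), Rprm (reprimo, a cell cycle inhibitor) by 0.77, Pidd1 (a death-domain protein that activates caspase-2) by 0.68 and Gtse1, a microtubule-binding protein that restrains p53, by 0.49. Ckap2, a spindle protein, and the stress gene Gadd45a fell by 0.76 and 0.33. The phosphatase Ppm1d (WIP1), which resets p53 signalling, read 10.96, 11.03 and 11.01 with DZNep, against 10.73, 10.76 and 10.81 in control, and rose by 0.23 (adjusted p = 0.0203).

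In high glucose 12 of these 32 genes rose and 0 fell with DZNep, against 10.6% and 10.4% of all genes, with a median of 0.19 against 0.01. Thbs1, which encodes thrombospondin and is also a TGF-beta target, rose by 0.87 (SE 0.20, adjusted p = 0.0114), Dcxr by 0.62, Pidd1 by 0.59 and Rprm by 0.48. Ppm1d gave 0.13 and did not pass (adjusted p = 0.182). Several widely used p53 targets did not pass in either state, among them Zmat3 (-0.11 and 0.00), Rrm2b (-0.02 and 0.08), Ddb2 (-0.08 and 0.02), Xpc (-0.07 and -0.02) and Eda2r (0.03 and 0.02), which were picked here after their values were seen. High glucose alone and high glucose under DZNep changed 0 of the 32 (limma), where 0.117% and 0.0585% of all genes passed.

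Regulators of p53 did not move one way. Of 16 tested out of 23, 2 rose and 4 fell with DZNep at normal glucose, and 2 rose and 1 fell in high glucose. Over all genes 19% rose and 12.7% fell at normal glucose, and 10.6% and 10.4% in high glucose. The list's medians were -0.10 and -0.02, against 0.05 and 0.01. Without control replicate 3 the counts were 1 and 4 at normal glucose and 2 and 3 in high glucose. In that fit 22.7% and 21.8% of all probes changed. Prkdc and Atm, kinases of the DNA damage response, fell by 0.82 (adjusted p = 0.00435) and 0.59 (adjusted p = 0.00773), the deacetylase Sirt1 by 0.45 and the ubiquitin ligase Cop1 by 0.44. The other Prkdc probe also passed as lower (-1.05). The 2 other Atm probes gave -0.33 and -0.21 without passing, and those of Cop1 -1.27 and 0.20, of which 1 passed as lower. The checkpoint kinase Chek2 rose by 0.31 at normal and 0.28 in high glucose. In high glucose Atm rose by 0.50 (adjusted p = 0.0247), and Cop1 fell by 0.38. There the 2 other Atm probes gave 0.40 and 0.54, of which 1 passed, and those of Cop1 -0.24 and -0.02 without passing. The interaction for Atm was 1.09 (SE 0.191) and did not pass (adjusted p = 0.0845). Mdm4, the partner of Mdm2, rose by 0.55 at a dim probe detected on 5 of 12 arrays (adjusted p = 0.0256) and fell by 0.50 at its other probe, so that its direction is not settled.

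**Figure D4:**
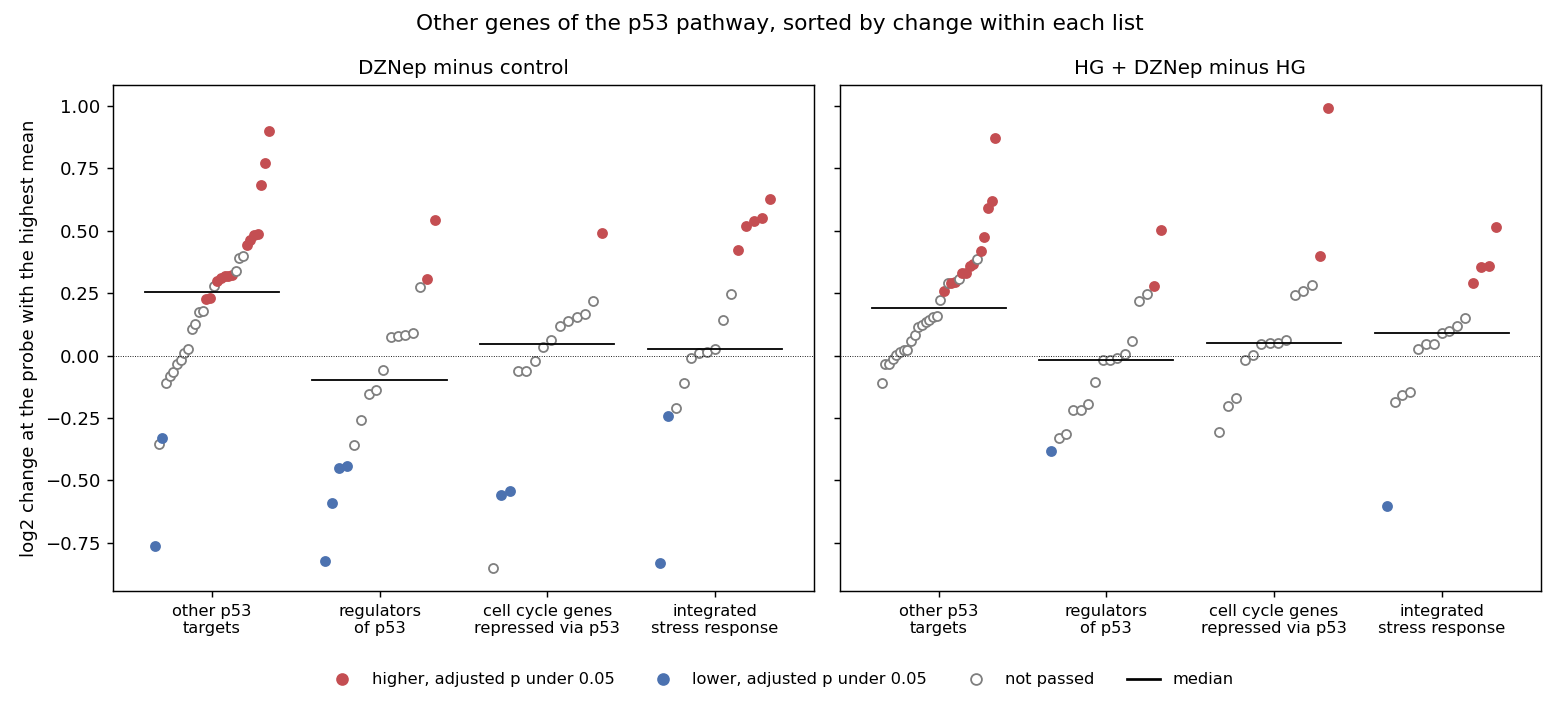
Log2 change (vertical axis) of each tested gene of 4 lists at its highest-mean probe, for DZNep minus control (left) and high glucose plus DZNep minus high glucose (right); points are genes sorted by change, filled where they passed, and bars are list medians. The other p53 targets have a median of 0.26 at normal glucose and 0.19 in high glucose, and the cell cycle genes 0.05 in both.

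Cell cycle genes known to be repressed when p53 and p21 act through the DREAM complex were also read. Of 14 tested out of 20, 1 rose, 2 fell and 11 did not pass with DZNep at normal glucose, against 19% of all genes higher and 12.7% lower. The list's median was 0.05, as was that of all genes. The transcription factor Foxm1 rose by 0.49 (adjusted p = 0.00048), and the mitotic kinesin Kif23 and the topoisomerase Top2a fell by 0.56 and 0.54. The 3 other Kif23 probes gave -0.46 to -0.14 without passing, and 1 of the 2 other Top2a probes (-0.41 and -0.12) passed as lower. Of the genes that did not pass, Cdk1 had 1 other probe that passed as higher and Cdc20 had 1 that passed as lower. Without control replicate 3, 1 rose and 1 fell, where 22.7% of all probes changed. In high glucose 2 rose and 0 fell, against 10.6% and 10.4% of all genes, Cenpf, a kinetochore protein, by 0.99 (adjusted p = 0.000219; 0.23 at its other probe) and Foxm1 by 0.40. Top2a gave 0.26 there without passing, while 1 of its 2 other probes (-0.38 and -0.31) passed as lower. Of the other Cdk1 probes 1 passed as higher.

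Sesn2 and Trp53inp1 are known to respond to stress pathways besides p53, so genes of the integrated stress response were read beside them. Of 15 tested, 5 rose and 2 fell at normal glucose, and 4 rose and 1 fell in high glucose, against all-gene shares of 19% and 12.7%, and 10.6% and 10.4%. Without control replicate 3 the counts were 5 and 3 at normal glucose, where 22.7% of all probes changed. Atf3 rose by 0.63, Ppp1r15a (GADD34) by 0.55, Trib3 by 0.54 and Chac1 by 0.52 with DZNep at normal glucose, and Vldlr fell by 0.83 and Cebpb by 0.24. In high glucose Ddit3 (CHOP) rose by 0.52, Chac1 by 0.36, Ppp1r15a by 0.36 and Trib3 by 0.29, while Vldlr fell by 0.60. The list's medians were 0.03 and 0.09, against 0.05 and 0.01 over all genes.

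Genes with the most similar pattern were sought over the 12 arrays, by the mean absolute difference between profiles centred on their own means. For Mdm2 at its first probe, whose profile had an SD of 0.41, the nearest were Lcat (0.068), P2rx7 (0.071), Pes1 (0.073), Tnfrsf10b (0.073) and Sars (0.074). Tnfrsf10b, a TRAIL death receptor, is itself a listed p53 target. Its nearest probe changed by 0.81 with DZNep at normal glucose and 0.67 in high glucose. At the Tnfrsf10b probe with the highest mean, which stands for it in that list, the changes were 0.34 (adjusted p = 0.197) and -0.03 (adjusted p = 0.928). Its 3 other probes, the nearest among them, passed as higher in both states, by 0.81 to 0.97 and by 0.50 to 0.88, so its probes disagree. For Cdkn1a at its first probe, whose profile had an SD of 0.16, the nearest were Utp6, Ap4b1, Oma1, Zkscan5 and Armt1, at 0.051 to 0.056.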

How the data were processed

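Podocyte RNA was amplified, labelled and measured on Illumina bead arrays, per the labels' protocols. The deposited raw table holds a linear intensity per probe, not normalized, beside Illumina's detection p-value, per the file headers. The submitters' processing notes name GenomeStudio without a version. In the authors' second deposited table, also intensity, every array was a scaled and shifted copy of its raw values (factor 0.832 to 1.12) with a mean of 568.254.

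Signals were normalized with neqc of limma 3.58.1 (R 4.3.3): normexp background correction from the detection p-values, offset 16, quantile normalization and log2. The platform annotation gave 34885 of 45281 probes a single symbol, 34807 of them found in RefSeq (GRCm38.p6). The 16311 single-symbol probes detected (p under 0.05) on 3 or more arrays were fitted with 4 group means (lmFit, eBayes). Benjamini-Hochberg adjustment ran over these probes within each of 5 comparisons. The 10258 highest-mean probes stand for genes in the other lists.

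The members and the lists were chosen with earlier results of these data known. All probes of the members are named; of each other list up to 4 genes per direction by size among those that passed, and Mdm4 and Ppm1d always. Alternatives were other background, scaling, offset, filter and probe choices, array weights, a replicate block and leaving out each array. The fit was tested on simulated data. Same-numbered arrays did not deviate together (correlations -0.262 to 0.209), so the numbers were not taken as pairs. The number of arrays limits the precision.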

Additional observations from a re-analysis of the deposited data

How the results depend on the processing

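All 25 calls of member probes kept their direction under the alternatives run, 20 of them passed under each, and 22 when any single array was left out. With 1 probe for each gene, 5 of 10 members rose and 1 fell with DZNep at normal glucose, where 33.9% of all genes changed. In high glucose 6 rose and 2 fell in that setting, where 24.2% of all genes changed. Counts over all probes moved more than those of the members. For DZNep at normal glucose 3334 probes changed with only the groups compared in the fit. For DZNep in high glucose 1906 changed with arrays centred on their medians and 5198 with array weights. Without background correction 304 changed for high glucose against control, 21 for high glucose under DZNep and 146 for the interaction. For high glucose against control 94 changed with an offset of 50, 63 with the stricter filter, 55 with all detected probes, 3 with only the groups compared and 96 with array weights. For high glucose under DZNep 6 changed with 1 probe for each gene, 0 with only the groups compared, 37 with array weights and 6 with the replicate block. For the interaction 17 changed with centring on medians, 27 with an offset of 50, 18 with the stricter filter, 12 with all detected probes and 57 with array weights. It was 0 in the authors' values, with no filter and with the replicate block.

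Leaving out 1 array gave 13 to 14 member probes changed with DZNep at normal glucose, 9 to 13 in high glucose, and 0 in the other comparisons. Over all probes the counts were 3553 (without DZNep replicate 1) to 5047, 1943 (without high glucose plus DZNep replicate 3) to 3552, 10 (without high glucose replicate 3) to 70 (without control replicate 1) for high glucose, 5 to 17 for high glucose under DZNep, and 0 without any 1 array for the interaction. The causes were not tested. Replicate numbers did not pair the arrays, and 3 of 12 arrays were closest to their own number. With the replicate block 13 member probes changed at normal and 11 in high glucose, where 28.7% and 17.1% of all probes changed. Dim probes, such as the third of Sesn1, are limited by their signal over background.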
